A study of Aspergillus nidulans with 8 samples.

Results

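The genes described here are those whose transcript level lay on the same side of untreated under amphotericin B, CdCl2 and Congo Red in Aspergillus nidulans, a filamentous fungus. All 8 arrays of the study were used, 6 from stressed cultures and 2 from untreated ones. Each stressed array was compared with the untreated array of its own strain label, which gives 6 differences a gene. Of 8633 genes tested, 375 (4.34%) lay above the untreated level in all 6 differences and 549 (6.36%) lay below it in all 6. Members were picked by the sign of these same differences, so their values are a description.

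The cultures were grown submerged for 16 h and then kept for 0.5 h with an agent or untreated. The doses in the labels were 2 mM amphotericin B (AmB), 0.2 mM CdCl2 and 10 mM Congo Red, and these units were not checked against another source, so a lost micro sign is possible. The reference strain, THS30.3, had the genotype pyrG89, AfupyrG+; pyroA+; veA+. The strain TNJ 92.4, with the genotype pyrG89, AfupyrG+; pyroA4; DatfA::pyroA; veA+, lacks atfA, which encodes a stress-related bZIP regulator. Both strains thus carry pyrG89 complemented with AfupyrG and an intact veA, and they differ in pyroA as well as in atfA. Each array held total RNA of mycelia pooled from 3 cultures, labelled with Cy3, with 1 array for each strain label and condition. No condition had a replicate array, so every p-value below measures the spread between different stresses and strain labels and not that between cultures. In such bulk RNA, fewer cells of a type and less RNA per cell cannot be told apart.

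Fungi meet many unrelated stresses with a partly shared programme, called the core or environmental stress response in yeasts. In Saccharomyces cerevisiae, genes of chaperones, antioxidant enzymes and carbohydrate stores are induced by most stresses while genes of ribosome biogenesis are repressed. In Schizosaccharomyces pombe and in aspergilli, the stress-activated MAP kinase (SakA in A. nidulans) and its bZIP partner AtfA take part in it. The 3 agents act on different targets. AmB is a polyene that binds ergosterol in the plasma membrane, cadmium is a heavy metal that binds thiols, and Congo Red is a dye that binds chitin and glucan of the cell wall.

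The scanner files went against their strain labels. The atfA (AN2911) probe stayed at background on all 4 arrays labelled reference, where its log2 level relative to the array's 75th percentile was −9.06 untreated, −7.19 with AmB, −8.58 with CdCl2 and −9.09 with Congo Red. On the 4 arrays labelled deletion it was bright, at 2.39, 3.64, 2.37 and 3.03 in the same order. The value table that the authors deposited for the same samples held atfA at 13.66 to 14.6 in the reference columns and at 6.19 to 6.26 in the deletion columns, on its own log2 scale. Each of its columns was most like an array carrying the other strain label. Over the 8633 genes, Pearson's r was 0.983 to 0.993 with that array and 0.878 to 0.944 with the array of its own labels. For 6 columns the best match had the same treatment label. The untreated reference column matched the CdCl2 array labelled deletion best (r = 0.984, against 0.977 for the untreated one), and the CdCl2 reference column matched the untreated array labelled deletion best (r = 0.984, against 0.977). The sources therefore differ in which of that pair of arrays is the untreated one. Results are given from the scanner files under their own labels, as arrays labelled reference or deletion, with the value table beside them.

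Signals on the AmB arrays were lower than on the others, with a 75th percentile of 336 and 262 against 1058 to 1881, and every array detected 7689 to 8478 of 10550 probes. Repeated spots, 4 for each probe, had a median SD of 0.0735 to 0.0972 (log2), which covers the slide and the scanner only. The arrays of AmB, CdCl2 and untreated cultures of a strain label shared a slide, while its Congo Red array lay on the other slide. Markers of conidia and conidiophores, the other cell types such a culture could hold, were above background for 5 to 9 of 11 genes. Their summed signal over the 75th percentile was 6.59 on the untreated array labelled reference and 4.52 to 11.06 on its stressed arrays, and 1.35 and 0.748 to 1.42 on those labelled deletion. The early regulator brlA was above background on 7 arrays and the spore genes vosA and catA on 0. For lysing mycelium, 3 of 4 markers were above background, with sums of 1.12 and 1.44 untreated and 0.995 to 2.18 under stress. The part of either cell state in the results was not tested.

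The first comparison asked how many genes keep 1 direction across all stresses. The 3 differences of a strain label share 1 untreated array, so they lean the same way even without any stress effect. If the untreated array held any of the 4 ranks among the arrays of its label with the same likelihood, 12.5% of genes would show 1 sign in all 6 differences, 6.25% in each direction. The measured share was 10.7%, or 924 genes against 1079 from this ordering. Genes higher in all 6 were fewer than the ordering gives (375 against 540) and genes lower in all 6 were close to it (549 against 540). With 16 arrangements of the untreated label within strain labels, the smallest two-sided p of an exact permutation test is 0.125, so no such count can reach 0.05 here.

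**Figure D1:**
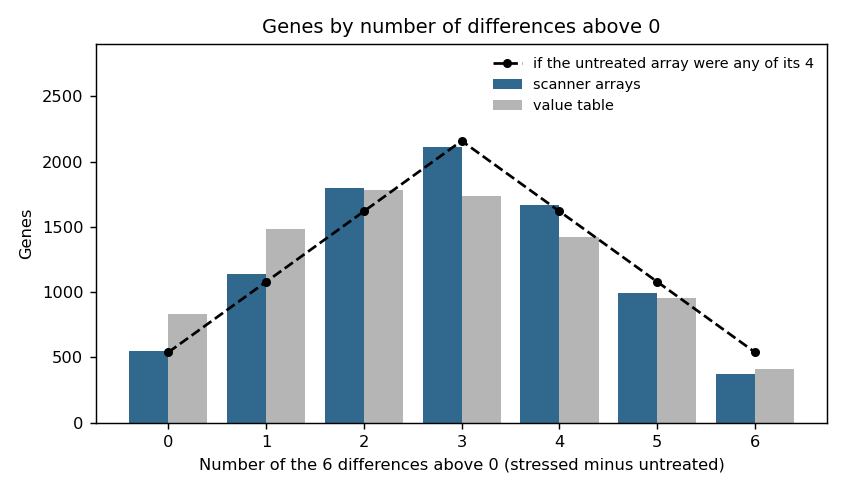
Number of genes (y axis) by how many of their 6 differences from untreated were above 0 (x axis), for the scanner arrays and for the value table, with the count that follows if the untreated array held any rank among its 4 arrays as a dashed line. The scanner arrays hold 549 genes at 0 and 375 at 6, where the line stands at 540 for both.

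Within 1 strain label, the untreated array was an extreme of its 4 less often than the 25% the ordering gives in each direction. It was the lowest for 1667 genes (19.3%) and the highest for 1729 (20.0%) under the reference label, and the lowest for 1193 (13.8%) and the highest for 1755 (20.3%) under the deletion label. The lists of the labels overlapped by more than independent lists would. The 375 genes higher under both made up 22.5% of the reference list and 31.4% of the deletion list, where independence gives 230. The 549 lower under both made up 31.8% and 31.3%, where independence gives 351. Among the 7105 genes above background on all 8 arrays, the overlaps were 254 against 162 and 469 against 311.

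For most of the shared genes the smallest of the 6 differences was small. The median gene of the higher set had a smallest difference of 0.0909 on the log2 scale, and that of the lower set 0.0922, which is of the order of the SD between spots. Every difference exceeded 2 standard errors of the spot means for 100 of the 375 and for 245 of the 549. All 6 differences were at least 0.5 for 21 genes higher and 10 lower. All 6 were at least 1, which is 2-fold, for 2 genes higher (0.0232% of those tested), AN5330 and AN6412, and for 0 lower. Just outside that threshold lay AN8095 with a smallest difference of 0.95 and AN11209 with 0.86.

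AmB gave the widest differences. Of all genes tested, 49.6% under the reference label and 29.2% under the deletion label differed at least 2-fold between AmB and untreated, against 7.41% and 2.28% for CdCl2 and 8.58% and 5.58% for Congo Red. The shared genes followed this order. In the higher set the median difference was 1.93 for AmB, 0.42 for CdCl2 and 0.47 for Congo Red under the reference label, and 1.27, 0.19 and 0.37 under the deletion label. In the lower set it was −0.88, −0.29 and −0.29, and −0.71, −0.24 and −0.31. AmB gave the largest of the 3 differences under both labels for 266 of the 375 higher genes (70.9%) and for 329 of the 549 lower ones (59.9%). The same share over all genes tested was not taken, so these values are a description. Of the higher set, 60 genes were not above background on either untreated array and 82 were not above it on an AmB array, where the lowest detectable scaled signal was −5.67 and −5.58 against −7.96 to −7.32 on the others. Of the lower set, 0 genes were dim on both untreated arrays and 80 on an AmB array. Probes above background on 0 arrays differed with AmB as well. Among those in the gene lists below, the differences were 0.57 to 3.61 under the reference label and −0.35 to 1.84 under the deletion label. For catA they were 1.90 and 1.68. Those probes were not tested, but a tested gene dim on the AmB and untreated arrays could be shifted likewise. Its part in the AmB shares above was not tested.

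The fit across all genes called none of them. In limma, with strain label and stress as terms on all 8 arrays, 0 of 8633 genes passed a Benjamini-Hochberg adjusted p of 0.05 in either direction (0.0% called), and the lowest adjusted p was 0.977. At an unadjusted p under 0.05 there were 43 genes, where 5% of those tested is 432, and 38 of the 43 had 1 sign in all 6 differences, 13 higher and 25 lower. The residual spread of this fit holds the gap between AmB and the milder stresses. In limma the interaction of stress with strain label passed for 0 genes, with 2 at an unadjusted p under 0.05.

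AN5330 and AN6412 stood above untreated by at least 2-fold in every difference. They carry no symbol in the RefSeq table and are given by number. AN5330 had log2 levels of −3.81 untreated, 3.91 with AmB, −0.65 with CdCl2 and −2.34 with Congo Red on the reference-labelled arrays, and −5.08, −0.70, −3.59 and −3.55 on the deletion-labelled ones. Each untreated array was the lowest of its label, although the untreated level of the reference label lay near the CdCl2 and Congo Red levels of the deletion label. The fitted mean difference was 3.29 ± 1.59 (SE, limma, adjusted p = 0.977; higher in 6 of 6 differences).

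AN6412 had log2 levels of −2.30 untreated, 5.80 with AmB, 0.35 with CdCl2 and −0.73 with Congo Red under the reference label, and −2.35, 1.42, −1.29 and −0.66 under the deletion label. Both untreated arrays lay below all 6 stressed ones. The mean difference was 3.14 ± 1.66 (SE, limma, adjusted p = 0.977; higher in 6 of 6). In the value table AN5330 was above untreated in 4 of 6 differences and AN6412 in 5 of 6, and the CdCl2 difference of the reference label was negative for both, at −0.99 and −0.98.

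The next 10 genes of the higher set by smallest difference, among those above background on all arrays, were AN11209, AN1621, AN8956, AN3125, AN5053, AN2358, AN9320, AN1952, AN10425 and AN7896, none of which has a symbol. Their smallest differences ran from 0.57 to 0.86 and their largest from 3.48 to 10.70. AN11209 had log2 levels of −2.87, 3.84, 0.59 and −1.82 (untreated, AmB, CdCl2, Congo Red; labelled reference) and of −1.48, 0.88, −0.62 and −0.22 (labelled deletion). Its AmB arrays were the highest of each label and its untreated arrays the lowest. AN3125 had log2 levels of −2.06, 8.52, −1.05 and −0.30, and of −2.39, 6.76, −1.68 and −1.51. Both AmB arrays stood far above the other 6. AN7896 differed from these in that Congo Red stood close to AmB, with levels of −4.65, −1.89, −4.09 and −2.07, and of −1.56, 2.24, −0.93 and 0.89. Its mean difference was 2.13 ± 0.88 (SE, limma, unadjusted p = 0.0448, adjusted p = 0.977; higher in 6 of 6).

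**Figure D2:**
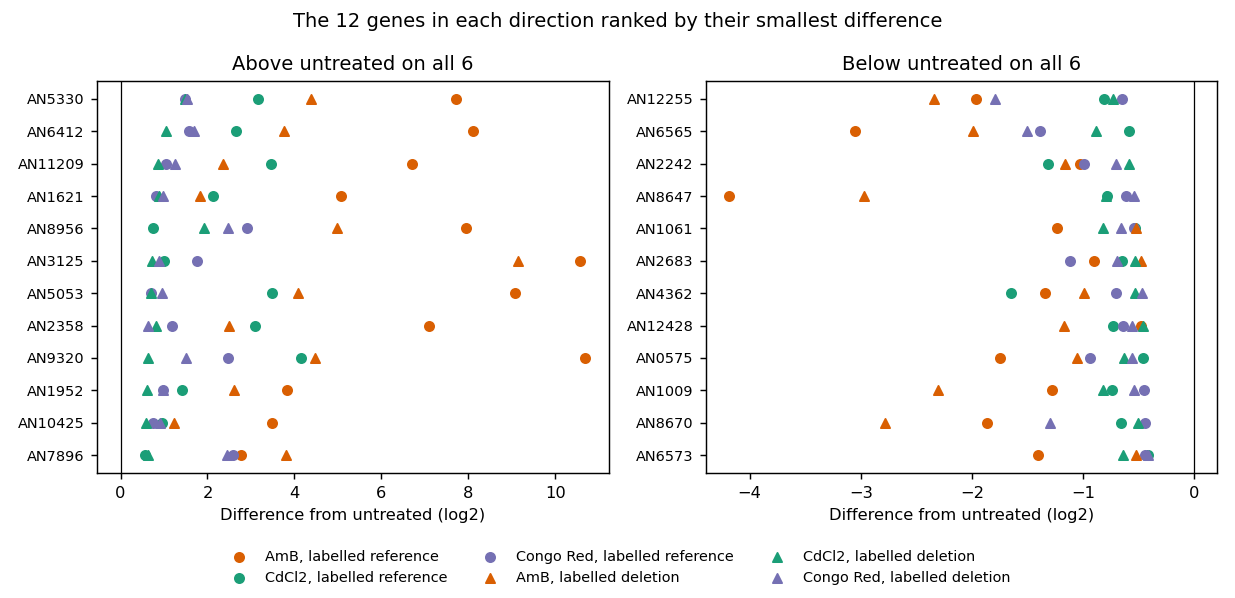
Difference from untreated on the log2 scale (x axis) for the 12 genes in each direction with the highest smallest difference among genes above background on all 8 arrays (y axis). Circles are arrays labelled reference and triangles those labelled deletion, coloured by agent, and AmB lies farthest from 0 for most genes of the left panel, up to 10.70 for AN9320.

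Among genes with a symbol, 25 of the higher set and 51 of the lower set were above background on all arrays. The higher ones with the largest smallest difference were pgxB, hmgA, zpr1, hsp60, pex19, erdS, dspC, abd1, aspf13, farB1, spp2 and dot1, with smallest differences of 0.08 to 0.24. By role they are mixed. In S. cerevisiae abd1 methylates the mRNA cap, spp2 acts in splicing and dot1 methylates histone H3, and in A. fumigatus erdS makes ergosteryl-aspartate. The differences of these 4 genes ran from 0.08 to 1.08.

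Chaperones fold or rescue damaged proteins. They gave 3 of 9 genes higher in all 6 (33.3%, against 4.34% of all genes tested) and 0 lower, with a list median of 0.59 against −0.03 for all genes. By agent the list median was 1.08 and 1.08 with AmB (labelled reference, deletion), 1.44 and 0.01 with CdCl2 and −0.01 and 0.12 with Congo Red. The mitochondrial chaperonin gene hsp60 (AN6089) had log2 levels of 2.93 untreated, 3.18 with AmB, 4.17 with CdCl2 and 3.28 with Congo Red on the reference-labelled arrays, and 2.89, 4.16, 3.15 and 3.03 on the deletion-labelled ones. Both untreated arrays lay below the 6 stressed ones. The largest difference came with CdCl2 under 1 label (1.24) and with AmB under the other (1.27), and the mean was 0.59 ± 0.42 (SE, limma, adjusted p = 0.977). In the value table hsp60 was above untreated in only 3 of 6 differences.

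The gene hsp78 (AN1163), named after a mitochondrial disaggregase of S. cerevisiae, had levels of 0.18, 1.31, 1.74 and 1.72, and of 1.42, 1.81, 1.45 and 1.77. Untreated was lowest in each label, but the untreated array labelled deletion stood above the AmB array labelled reference, so the stressed and untreated groups overlapped. The differences were 1.14, 1.57 and 1.55 under the reference label and 0.39, 0.02 and 0.35 under the deletion label, with a mean of 0.84 ± 0.34 (SE, limma, unadjusted p = 0.0405, adjusted p = 0.977). The third member, AN0858, has no symbol and was placed in the list by number; its CdCl2 and Congo Red differences under the deletion label were 0.01 and 0.02. The other 6 chaperone genes, hsp70, hsp90, hsp88, sti1, fes1 and the ER chaperone gene bipA, had mixed signs. Of these, fes1, a nucleotide exchange factor gene in S. cerevisiae, differed by 3.69, 2.42 and 1.54 under the reference label and by 2.61, −0.50 and 0.32 under the deletion label. In the value table fes1 was above untreated in all 6 differences.

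Breakdown of tyrosine and proline gave 2 of 10 genes higher (20.0%, against 4.34% of all genes tested) and 0 lower, and the highest list median, 1.51. By agent the list median was 4.76 and 1.56 with AmB (labelled reference, deletion). With CdCl2 it was 0.24 and −0.12 and with Congo Red 0.79 and −0.18, so the list as a whole stood well above untreated with AmB only. Homogentisate dioxygenase, an enzyme that opens the aromatic ring in tyrosine breakdown, is the product of hmgA (AN1897). It had log2 levels of −6.22 untreated, 0.20 with AmB, −5.45 with CdCl2 and −4.42 with Congo Red under the reference label, and −5.97, −4.40, −5.67 and −5.75 under the deletion label. Both untreated arrays were below the 6 stressed ones, by as little as 0.21 for Congo Red under the deletion label, and the mean difference was 1.84 ± 1.40 (SE, limma, adjusted p = 0.977). Before scaling, the lowest signal of hmgA, 12.4, was that of the AmB array labelled deletion. Its difference there, 1.57, lay within those of probes above background on 0 arrays, such as 1.68 for catA and 0.49 for AN7806. That rise was thus not told apart from a shift of dim probes. The neighbours of hmgA by number in the same list, hmgX, fahA and maiA, were above untreated with AmB under both labels and had 1 or more negative differences with the milder stresses. AN1899, the other member with 1 sign, differed by 9.26, 1.08 and 2.74, and by 5.26, 0.13 and 2.32, and was above background on 7 arrays.

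Peroxisome biogenesis gave 2 of 12 genes higher (16.7%, against 4.34% of all genes tested) and 0 lower, with a list median of 0.11. The gene pex19 (AN4899), named after a yeast receptor for peroxisomal membrane proteins, had levels of 0.43, 2.85, 0.83 and 1.38, and of 0.80, 2.86, 0.94 and 1.08. The AmB arrays of the labels lay at nearly the same level, and the CdCl2 array labelled reference lay only just above the untreated array labelled deletion. The mean difference was 1.04 ± 0.68 (SE, limma, adjusted p = 0.977). For pex13, named after a subunit of the yeast docking complex, the CdCl2 differences were 0.00 and 0.05. Of 18 proteasome genes, 1 was higher, rpt3, an ATPase of the regulatory particle, with differences of 0.06 to 0.79. Among 19 genes of amino acid biosynthesis 1 was higher, cpcA (AN3675), the activator of cross-pathway control, with levels of 3.63, 7.11, 4.0 and 3.82, and of 3.63, 6.03, 3.69 and 3.91. Its untreated levels were equal in the labels, and only AmB stood well apart.

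**Figure D3:**
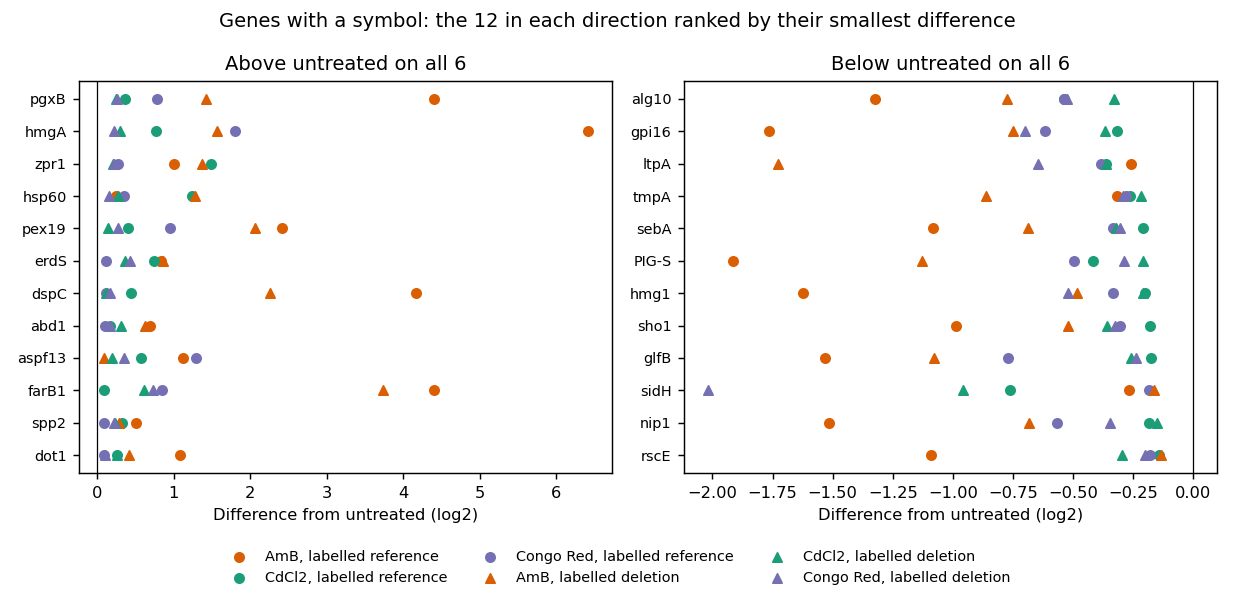
Difference from untreated on the log2 scale (x axis) for the 12 genes with a symbol in each direction that had the highest smallest difference among genes above background on all 8 arrays (y axis). Circles are arrays labelled reference and triangles those labelled deletion, coloured by agent. All smallest differences lie between 0.08 and 0.33 in size.

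Among genes above background on all 8 arrays, the lower set was led by AN12255, AN6565 and AN2242, which have no symbol. AN0403 and AN5429, above background on 5 and 6 arrays, had higher smallest differences, 0.72 and 0.71 in size, against 0.65 for AN12255. AN2242 had log2 levels of −0.30 untreated, −1.33 with AmB, −1.61 with CdCl2 and −1.29 with Congo Red on the reference-labelled arrays, and −2.09, −3.25, −2.68 and −2.79 on the deletion-labelled ones. The untreated array was the highest of each label, and the labels did not overlap at all. Its differences ran from −0.59 to −1.31, with a mean of −0.96 ± 0.27 (SE, limma, unadjusted p = 0.009, adjusted p = 0.977; lower in 6 of 6). AN12255 had levels of 0.41, −1.55, −0.40 and −0.23, and of 1.23, −1.11, 0.50 and −0.56. Its untreated array labelled reference lay below the CdCl2 array labelled deletion, so the groups overlapped, and the mean difference was −1.38 ± 0.52 (SE, limma, unadjusted p = 0.0314). For AN6565 the mean was −1.57 ± 0.63 (SE, limma, unadjusted p = 0.0391). The next 9 genes above background on all arrays, AN8647, AN1061, AN2683, AN4362, AN12428, AN0575, AN1009, AN8670 and AN6573, had smallest differences of 0.41 to 0.54 in size and means of −1.65 to −0.64.

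The genes with a symbol that led the lower set, among those above background on all arrays, were alg10, gpi16, ltpA, tmpA, sebA, PIG-S, hmg1, sho1, glfB, sidH, nip1 and rscE. Of these, sebA encodes a zinc finger regulator of the stress response with a mean difference of −0.49 ± 0.31, and tmpA a membrane flavoprotein of the signalling that starts asexual sporulation with one of −0.37 ± 0.27 (SE, limma, adjusted p = 0.977 for each).

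Protein glycosylation and GPI anchoring, which modify proteins of the secretory pathway and tether them to the membrane and wall, gave 4 of 21 genes lower and 0 higher. That list was put together after the values of this set were seen, so the count is a description. In yeast, alg10 adds the last glucose to the lipid-linked oligosaccharide; here alg10 (AN5902) had log2 levels of −0.05 untreated, −1.38 with AmB, −0.59 with CdCl2 and −0.59 with Congo Red under the reference label, and 0.00, −0.78, −0.33 and −0.53 under the deletion label. Both untreated arrays lay above the 6 stressed ones, and the mean difference was −0.67 ± 0.31 (SE, limma, adjusted p = 0.977; lower in 6 of 6).

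The transamidase that attaches GPI anchors was represented by gpi16 and PIG-S, names of its subunits in yeast and human. The log2 levels of gpi16 (AN1775) were −2.18, −3.95, −2.50 and −2.80, and −2.43, −3.18, −2.80 and −3.13. PIG-S (AN10639) was at 0.49, −1.43, 0.07 and −0.01, and at 0.61, −0.52, 0.40 and 0.32. Both genes had their 2 untreated arrays above all stressed ones and their lowest values with AmB. The means were −0.75 ± 0.41 and −0.74 ± 0.48 (SE, limma, adjusted p = 0.977 for each). The fourth member, glfB, named after a UDP-galactofuranose transporter of Aspergillus fumigatus, had a mean of −0.67 ± 0.42. The list median was −1.72 and −0.75 with AmB, −0.49 and 0.00 with Congo Red and 0.04 and −0.08 with CdCl2, so the list as a whole stood low with AmB and not with CdCl2.

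Sterol biosynthesis makes ergosterol, the ligand of AmB. Of 16 genes, 1 was lower in all 6 (6.25%, against 6.36% of all genes tested) and 0 higher. It was hmg1 (AN3817), the HMG-CoA reductase gene, with log2 levels of −0.80 untreated, −2.43 with AmB, −1.0 with CdCl2 and −1.14 with Congo Red on the reference-labelled arrays, and −1.20, −1.69, −1.41 and −1.72 on the deletion-labelled ones. The untreated array labelled deletion lay below the CdCl2 and Congo Red arrays labelled reference, so the groups overlapped. The mean difference was −0.56 ± 0.41 (SE, limma, adjusted p = 0.977). The list median was −1.64 and −0.85 with AmB, −0.01 and 0.08 with CdCl2 and −0.32 and −0.07 with Congo Red.

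Iron uptake and siderophores, the iron chelators that fungi make, gave 3 of 14 genes lower (21.4%, against 6.36% of all genes tested) and 0 higher, with a list median of −0.72. Of the 14, 0 were lower in all 6 differences of the value table, where the list median was −0.20. One was sidH (AN6235), named after a siderophore gene of A. fumigatus, with levels of −3.47, −3.74, −4.24 and −3.66, and of −2.95, −3.12, −3.91 and −4.97. Its lowest array was Congo Red under the deletion label, and its AmB levels lay close to untreated. AN6234, which neighbours sidH in the RefSeq order of tested genes, had levels of −4.19, −4.64, −5.39 and −4.78, and of −3.77, −4.07, −4.49 and −6.96, and was above background on 6 arrays. The third, AN5823, had differences of −0.07 to −2.71. Congo Red under the deletion label thus gave the lowest array for all 3. After normexp, another background correction, which moved the median of all genes to 0.23, the mean was 0.028 for sidH and 0.21 for AN6234, above 0.

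Of 14 genes of stress signalling, 2 were lower (14.3%, against 6.36% of all genes tested) and 0 higher. The membrane sensor gene sho1 (AN7698) had log2 levels of −2.18, −3.17, −2.36 and −2.49, and of −2.30, −2.82, −2.66 and −2.63, with a mean difference of −0.45 ± 0.29 (SE, limma, adjusted p = 0.977). For ste7, named after a MAP kinase kinase of yeast mating, the mean was −0.47 ± 0.28. After normexp the means of sho1 and ste7 were above 0, at 0.0763 and 0.12. The MAP kinase gene sakA had mixed signs, with 5 of 6 differences above 0. Cell wall genes gave 1 of 20 higher and 2 lower. The higher one was chsF (AN1555), a chitin synthase gene, with differences of 0.06 to 0.42, and the lower ones were rho2, a small GTPase gene, and gel1, named after a glucanosyltransferase. After normexp the mean of rho2 was 0.0245.

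Of the yeast gene groups named at the start, all but the chaperones held 0 genes with 1 sign on the arrays. The share over all genes, 10.7%, would amount to only a few genes in lists this short. Of 23 genes of ribosome biogenesis, 0 had 1 sign in all 6, and the list median was −1.76 with AmB under the reference label, 0.23 with AmB under the deletion label and 0.61 with CdCl2 there. Of 11 antioxidant genes, 0 had 1 sign, with a list median of 0.17; sod1, sod2, trr1 and glr1 were above untreated with AmB under both labels and below it in 1 or more of the other differences. Of 8 genes of trehalose and glycerol metabolism, 0 had 1 sign. Of 12 genes of ribosomal proteins and translation factors, 1 was lower, nip1, named after a subunit of yeast initiation factor eIF3. The lists of autophagy (5 genes), mitochondrial import (8), acetate use and gluconeogenesis (8), penicillin (3), secondary metabolite backbone enzymes (10), multidrug transporters (5), the secretory pathway (9), the cell cycle (12) and autolysis (3) also held 0. The remaining lists held 1 or more. These were glycolysis with AN5210 and pgkA lower (2 of 10), amino acid biosynthesis with ilv3C and lysB lower (2 of 19), nitrogen assimilation with AN5134 lower (1 of 12), calcium signalling with AN8820 lower (1 of 9), conidia with ivoA lower (1 of 9) and the sterigmatocystin cluster with AN7811 higher (1 of 11). For all genes tested the share with 1 sign was 10.7%.

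**Figure D4:**
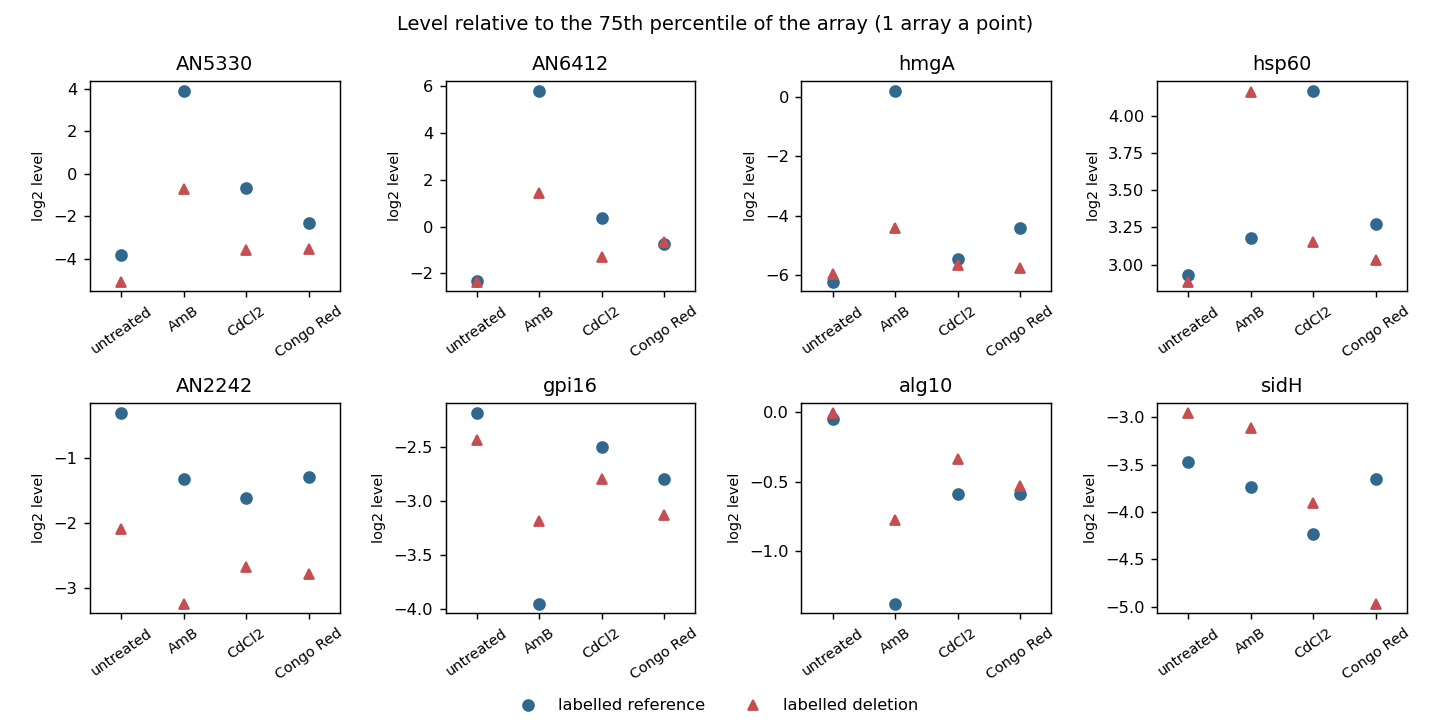
Log2 level relative to the 75th percentile of the array (y axis, its range set for each gene) of 8 genes on the 8 arrays, by condition (x axis), with circles for arrays labelled reference and triangles for those labelled deletion, 1 array a point. Untreated is the lowest point of each label for the 4 upper genes and the highest for the 4 lower ones. The widest range is that of AN5330, from −5.08 to 3.91.

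The value table, read under its own labels, gave a different set. It held 410 genes higher in all 6 differences (4.75%) and 834 lower (9.66%), together 14.4%, and 0 at least 2-fold in either direction. In limma 0 genes passed, with 40 at an unadjusted p under 0.05. Only 9 genes were higher in all 6 in both sources, which is 2.4% of the scanner set and 2.2% of the table set, where independent lists would share 18. For lower genes 57 were shared, 10.4% and 6.83%, where independent lists would share 53. The sets parted at 1 difference. Of the 375 higher genes, 4.0% were also above untreated with CdCl2 in the reference columns of the table, against 60.8% to 92.3% in the other 5 differences. Over all genes tested, 48.7% were above untreated at that difference and 39.1% to 48.1% at the other 5. Of the 549 lower genes, 10.9% were below untreated there, against 61.9% to 100% in the others, where all genes gave 51.3% and 51.9% to 60.9%. The lowest of the 5, Congo Red in the reference columns, had 60.8% of higher genes against 48.1% of all and 61.9% of lower genes against 51.9% of all. The list counts differed by source as well. Ribosome biogenesis, with 0 of 23 genes of 1 sign on the arrays, had 10 lower in all 6 differences of the table, and stress signalling had 3 of 14 higher there and 2 lower on the arrays. Chaperones had 3 of 9 higher on the arrays and 2 in the table, hsp78 and fes1, and only hsp78 was higher in both. Iron and siderophores had 3 of 14 lower on the arrays and 0 in the table, glycolysis 2 of 10 and 0, and sterol biosynthesis 1 of 16 and 3. The difference at which the sets parted uses the pair of columns whose best matching arrays carry the other's treatment label. Genes with 1 sign in both sources must keep it under both readings of that pair, so the shared counts are no independent check.

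**Figure D5:**
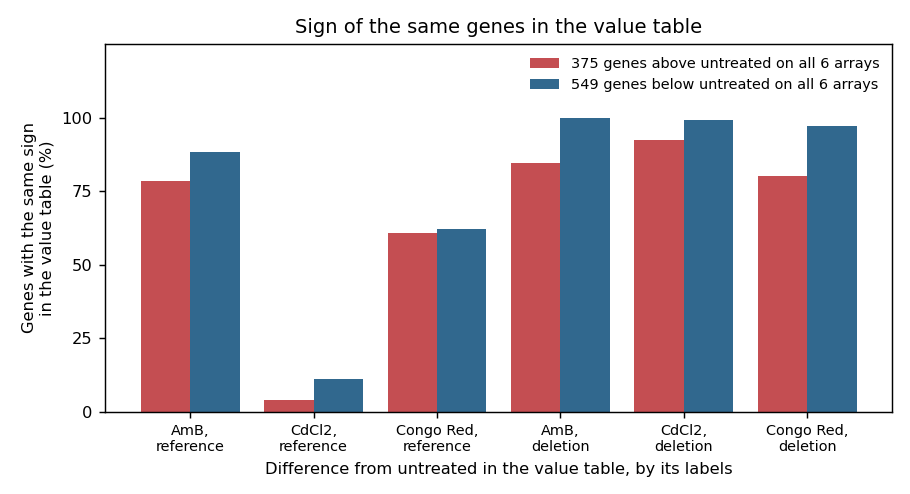
Share of the genes with 1 sign in all 6 scanner differences that had the same sign in the value table (y axis, percent), for each difference of the table by its own labels (x axis). The CdCl2 difference of the reference columns stands at 4.0% and 10.9%, and the other 5 at 60.8% or more, while all genes tested, not drawn, gave 39.1% to 48.7% above untreated and 51.3% to 60.9% below it.

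The genes with 1 sign in both sources had small smallest differences. The filter itself favours this, since the sources differ in which array of 1 pair was untreated. Genes with little difference in that pair keep 1 sign in both most easily, so the list is a description. The higher ones were hsp78, AN10858, AN6940, chsF, AN3347, AN4187, AN2265, AN4363 and creA, the gene of the carbon catabolite repressor. AN6940 had scanner differences of 2.26, 2.01 and 0.38, and of 1.37, 0.01 and 1.23, and table differences of 1.28, 0.03 and 1.38, and of 1.89, 1.86 and 0.30. Among the lower ones AN6617, AN4454, AN5827, AN2353 and AN0307 had the largest smallest difference over both sources, at 0.06 to 0.10 in size, and the symbols kipA and kfsA also belong there. After normexp the means of these 5 genes were above 0, from 0.11 to 0.80.

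A count that does not depend on which of the CdCl2 and untreated arrays is which was taken from AmB and Congo Red alone. Genes were counted where both of these arrays lay on the same side of both the untreated and the CdCl2 array under both labels. There were 859 higher (9.95%) and 549 lower (6.36%), where ranks without any effect give 2.78%, or 240 genes, in each direction. The value table gave 537 and 719, and 489 and 443 genes were shared, which is 56.9% of the scanner list and 91.1% of the table list for higher genes and 80.7% and 61.6% for lower ones. Both sources hold the same samples, so these shared counts are no independent check either. Of the genes with 1 sign in all 6 differences, 139 of the 375 higher and 138 of the 549 lower belonged to this group. Of the higher genes named above it holds AN8956, AN3125, AN7896, AN0858, AN1899, AN7811, AN10858, AN3347, AN4363, pex19, pex13, pgxB, farB1 and chsF. Of the lower ones it holds AN6565, AN5823, AN6617, AN5827, alg10, gpi16, PIG-S, hmg1, nip1, lysB, pgkA, tmpA and kipA. The other genes named above with 1 sign in all 6 differences, AN5330, AN6412, hsp60 and AN2242 among them, are outside it. These counts do not treat CdCl2 as a stress.

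Genes with 1 sign lay beside each other in the genome in some cases. In the gene order of the RefSeq table, 347 higher genes had a place and formed 23 neighbouring pairs, where 15 follow if order and direction were independent. The 517 lower genes with a place formed 45 pairs, where 33.2 follow. The pairs took in 45 higher genes (13.0%) and 88 lower ones (17.0%). Among the lower pairs were AN6234 with sidH and AN0575 with AN0576.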

How the data were processed

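The submitters' processing notes name Agilent Feature Extraction 12.0.3.1. The deposited scanner files hold for each spot, per the file headers, a background-subtracted processed signal, an intensity on a linear scale. The authors also deposited a table of log2 values, column medians 9.237 to 9.26, with a normalization not given in the sources used here, and the sign was taken from the correlations with the arrays. Control and outlier-flagged spots (1.46% to 1.90% of spots) were left out, log2 signals of the 4 spots averaged and each array's 75th percentile subtracted. A probe with at least 50% of its spots well above background on at least 2 arrays was tested (8633 of 10550; 7105 on all 8). Of the probes, 9697 matched locus tags of RefSeq assembly ASM1142v1 and 776 had a symbol; coordinates are left out, since the files name no build. Slides were read from the barcodes of the arrays.

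Differences were tested with limma 3.58.1 (R 4.3.3; lmFit, eBayes, Benjamini-Hochberg at 0.05; 5 residual degrees of freedom, 4 with the interaction), checked on simulated data. Genes were named as the 12 in each direction with 1 sign and the largest smallest difference, above background on all arrays, the same among genes with a symbol, up to 4 in each list, up to 5 in each direction with 1 sign in both sources, and atfA; other names were chosen after their values were seen. The members and lists were chosen with earlier results of these data known, and the list of GPI anchoring and glycosylation after the values of its genes were seen. List members matched by symbol pattern were removed by hand where the symbol meant another gene. Alternatives were the normalization, background correction (normexp with an offset of 50, on the median signal), filters, slide as a term, the value table, and leaving out each array or agent.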

Additional observations from a re-analysis of the deposited data

Results flagged for a closer look

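Under the same contrast, 145 genes lay above untreated in all 3 differences of the reference label and below it in all 3 of the deletion label, and 163 genes lay the other way. Together these were 308 genes, or 3.57% of the 8633 tested. They were picked because all samples of 1 label moved against all samples of the other, and this difference was not tested by sign. In limma the interaction of stress with strain label passed for 0 genes, with 2 at an unadjusted p under 0.05. Independent lists would share 339 and 239 genes, so both counts were smaller. The value table under its own labels gave 156 and 108 such genes, where independent lists would share 394 and 290. All 6 differences were at least 0.5 for 1 of the 308. That gene, AN0903, differed by 5.09 with AmB, 0.89 with CdCl2 and 1.89 with Congo Red under the reference label and by −1.50, −1.76 and −0.90 under the deletion label. It was above background on 7 arrays. In the value table AN0903 differed by −0.25, 0.84 and 0.41 in the reference columns and by 3.92, 0.54 and 1.05 in the deletion columns. There it was above untreated in 5 of 6 differences, so the labels did not stand opposite.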

How the results depend on the processing

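The counts of genes with 1 sign moved with the arrays that had to share it. Genes higher in all remaining differences numbered 655 without the AmB arrays, 1310 without CdCl2, 685 without Congo Red, which is also the within-slide value, 859 for AmB and Congo Red against both other arrays and 21 with every difference at least 0.5. Lower ones numbered 1043, 1188, 1034, 549 and 10 in that order, with 290 after normexp and 834 in the value table. At least 2-fold higher were 0 after normexp, 0 in the value table, 2 without AmB, 75 without CdCl2, 8 without Congo Red or within a slide and 47 for AmB and Congo Red; lower were 2 without AmB, 8 without CdCl2, 2 without Congo Red or within a slide and 2 for AmB and Congo Red. Leaving out 1 array gave 429 to 1667 higher, 664 to 1755 lower, 2 to 88 at least 2-fold higher and 0 to 13 lower; the counts at the top end came from leaving out an untreated array, which leaves 1 strain label. Without the CdCl2 array labelled deletion the 4 counts were 815, 852, 17 and 2. Without the CdCl2 array labelled reference 4 genes were at least 2-fold higher, and without the Congo Red array labelled deletion 1 was at least 2-fold lower. By construction, leaving out arrays cannot lower these counts and a size limit cannot raise them; the cause of the size of each shift, and of those with normexp, the value table and the comparison with both other arrays, was not tested. In limma 0 genes passed under all 19 alternatives for stress, with 3 to 214 at an unadjusted p under 0.05, and under all 17 for the interaction, which could not be fitted without an untreated array.

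Normexp moved the median of all genes from −0.03 to 0.23 and quantile normalization to −0.10. Of 77 named genes, 15 changed sign under 1 alternative. After normexp these were sho1 (0.0763), ste7 (0.12), AN6234 (0.21), sidH (0.028), rho2 (0.0245), ilv3C (0.45), ivoA (0.43), rscE (0.0691), AN6617 (0.68), AN4454 (0.80), AN5827 (0.35), AN2353 (0.41) and AN0307 (0.11). In the value table they were AN5134 (0.0287) and AN8820 (0.0286). The cause was not tested. No paired analysis was possible because the labels give no replicate numbers beyond the strain label, which is a term of every fit. The number of arrays limits every value, and on the AmB arrays, with the lowest signals, fewer dim genes could be measured.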

Other observations

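Genes that AmB and Congo Red placed on 1 side of both the untreated and the CdCl2 array under both labels included 47 at least 2-fold higher, of which 41 had the same sign in the value table and 9 were at least 2-fold there too. The value table holds the same samples, so it is no independent check. The names here were chosen after their values were seen. AN7893, AN7883, AN7896 and AN7899, which lie close by number, were among the 8 with the largest smallest difference, and AN7893 had log2 levels of −2.09 and −3.81 with AmB and −1.32 and −4.60 with Congo Red, against −4.85 and −8.92 untreated and −6.57 and −9.20 with CdCl2. It was above background on 5 arrays. The genes sit2 and prnD, which have a symbol, lay on this side too but fell short of 2-fold in part of the comparisons. The levels of sit2 (AN3763) were 0.10 and 2.00 with AmB, −0.50 and −0.30 with Congo Red, −1.88 and −1.28 untreated and −1.91 and −1.73 with CdCl2. The proline transport and breakdown cluster gene prnD (AN1731) was at −2.39 and −4.42 with AmB and −3.83 and −4.65 with Congo Red, against −5.62 and −5.98 untreated. With CdCl2 it differed from untreated by 0.91 and −0.10.

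At least 2-fold lower in the same sense were 2 genes, AN7798 and AN7594. AN7798 was at −3.53 and −2.42 with AmB and −3.17 and −2.60 with Congo Red, against −1.04 and −1.0 untreated and −0.54 and −0.41 with CdCl2, and AmB and Congo Red lay below the others in the value table as well, by at least 1.27. Among lower genes with a symbol were mirD, a siderophore transporter gene, and erg2, a gene of ergosterol synthesis, which was at −0.25 and 0.09 with AmB and 1.26 and 0.68 with Congo Red, against 1.83 and 1.91 untreated.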
